A study of Mus musculus with 4 samples.

Results

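Cells that stood between monocyte and macrophage by their RNA were examined in the CD11b+ sort of MC38 tumors from WT and VISTA KO chimeras. They were chosen by raw UMI counts of a few genes: at least 1 UMI of Ly6c2 and 3 to 9 UMIs of C1qa, C1qb and C1qc together. Fewer than 10 UMIs of S100a8 and S100a9, fewer than 5 of Ncr1, Klrb1c, Gzma and Prf1, fewer than 2 of Cd209a and fewer than 4 of Ccr7, Fscn1 and Cacnb3 were allowed. The rule found 2859 such cells among 25333 kept barcodes, 674 in the WT library and 2185 in the VISTA KO library. They are called in-between cells below. Cells with 0 to 2 C1q UMIs under the same other gates are called C1q-low (4013 WT, 5069 VISTA KO), and those with 10 or more are called C1q-high (1799 and 4867).

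Bone marrow of WT or VISTA KO donors (C57/BL6 strain; VISTA is the inhibitory receptor encoded by Vsir) was used to make chimeras. After 6 weeks of reconstitution these received MC38 cells, a transplanted mouse colon carcinoma, and the tumors were taken at a diameter of 9 to 10 mm. Tumors were pooled, CD45.1 and CD45.2 told WT from KO cells, and viable CD11b+ cells, labelled as myeloid suppressor cells, were sorted, with 10000 loaded for droplet sequencing of 3 prime RNA and of antibody tags. Each group held 1 RNA library with its tags, so that no test between groups exists. Levels and ratios carry 95% intervals that cover counting error only. The age of the animals, the deleted part of Vsir and the cells that the hosts kept are not stated in the labels used here.

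Monocytes that leave the blood for a tumor carry Ly6C and the chemokine receptor Ccr2, and many of them turn into macrophages. Macrophages switch on C1q, the first component of the classical complement pathway, which is built of the chains C1qa, C1qb and C1qc and which also helps to clear dying cells. Apoe, Ms4a7 and lysosomal genes are known to rise along the way, while Ly6c2, Vcan and Hp are known to fall.

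The 3 antibodies read the surface of the same cells without the RNA of the gate genes. Their barcodes are printed because these 15 bases are what was counted as protein in each droplet.
CD11c: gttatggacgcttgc
Ly6G: acattgacgcaacta
Ly6C: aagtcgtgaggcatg

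The C1q genes lie side by side on chromosome 4, and 2 of the 3 matched the RefSeq promoter table of GRCm38.p6. The 250 bases before the start of C1qb (chr4:136886201-136886450, minus strand) and C1qc (chr4:136892915-136893164, minus strand) are shown because the chains were not present in equal shares in the in-between cells. Capitals mark the letters AGGAAG, a core of sites of the myeloid factor PU.1, on either strand.
C1qb: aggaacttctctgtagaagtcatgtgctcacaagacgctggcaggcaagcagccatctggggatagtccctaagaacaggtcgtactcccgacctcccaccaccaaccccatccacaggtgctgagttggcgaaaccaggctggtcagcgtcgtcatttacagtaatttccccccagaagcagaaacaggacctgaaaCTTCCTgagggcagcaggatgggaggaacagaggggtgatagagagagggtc
C1qc: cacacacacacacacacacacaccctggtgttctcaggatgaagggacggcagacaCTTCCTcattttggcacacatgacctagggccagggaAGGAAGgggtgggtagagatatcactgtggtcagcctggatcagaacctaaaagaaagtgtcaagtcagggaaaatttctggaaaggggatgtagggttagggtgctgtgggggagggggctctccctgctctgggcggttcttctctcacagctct
C1qb held AGGAAG at 52 to 47 bases before the start, on the opposite strand. C1qc held AGGAAG at 157 to 152 and, on the opposite strand, at 194 to 189. Of all 32851 promoters of this length in the table, 29.5% held AGGAAG on either strand. No match overlapped another, and a match is a description of letters only.

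The libraries held 10241 WT and 15257 VISTA KO barcodes, of which 99.5% and 99.2% were kept. The in-between cells rested on 3011149 WT and 8275225 VISTA KO gene UMIs. Their median was 3962.5 UMIs per cell in WT and 3360 in VISTA KO, while C1q-high cells stood at 6237 and 5953. Barcode sequences found in both libraries numbered 47, and 4 WT and 6 VISTA KO in-between cells carried one. Malat1, a nuclear RNA, stood at 9711 UMIs per 1000000 (CPM) in WT and 15513 in VISTA KO in-between cells. No doublet caller was run, so droplets of more than 1 cell were not removed.

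In-between cells made up 10.4% (9.66 to 11.2) of the WT cells past the common gates and 18.0% (17.3 to 18.7) of the VISTA KO cells. The same C1q range was then counted in NK barcodes, which should lack C1q. These had at least 5 UMIs of Ncr1, Klrb1c, Gzma and Prf1 and did not have to pass the other gates. Ly6c2 was found in 46.7% of them in WT and 70.3% in VISTA KO. It held 3.58% of WT NK barcodes (2.28 to 5.33; 23 of 642, median 2628.5 UMIs) and 16.5% of VISTA KO NK barcodes (13.5 to 19.7; 96 of 583, median 3070 UMIs). The gated cells had medians of 4543 and 4155 UMIs. With every cell thinned to 2000 UMIs, the shares were 13.9% of WT and 17.4% of VISTA KO gated cells, with 723 and 2347 shallower cells left out. The thinned NK shares were 6.64% and 17.9%, with 220 and 124 left out. The WT share thus lay above the NK level and the VISTA KO share lay at it, and the larger VISTA KO share cannot be read as more cells in transition. NK barcodes with 10 or more C1q UMIs were 11.8% and 19.2%, and droplets of 2 cells were not removed. An NK barcode had any C1q UMI in 36.1% of WT and 77.9% of VISTA KO barcodes.

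**Figure D1:**
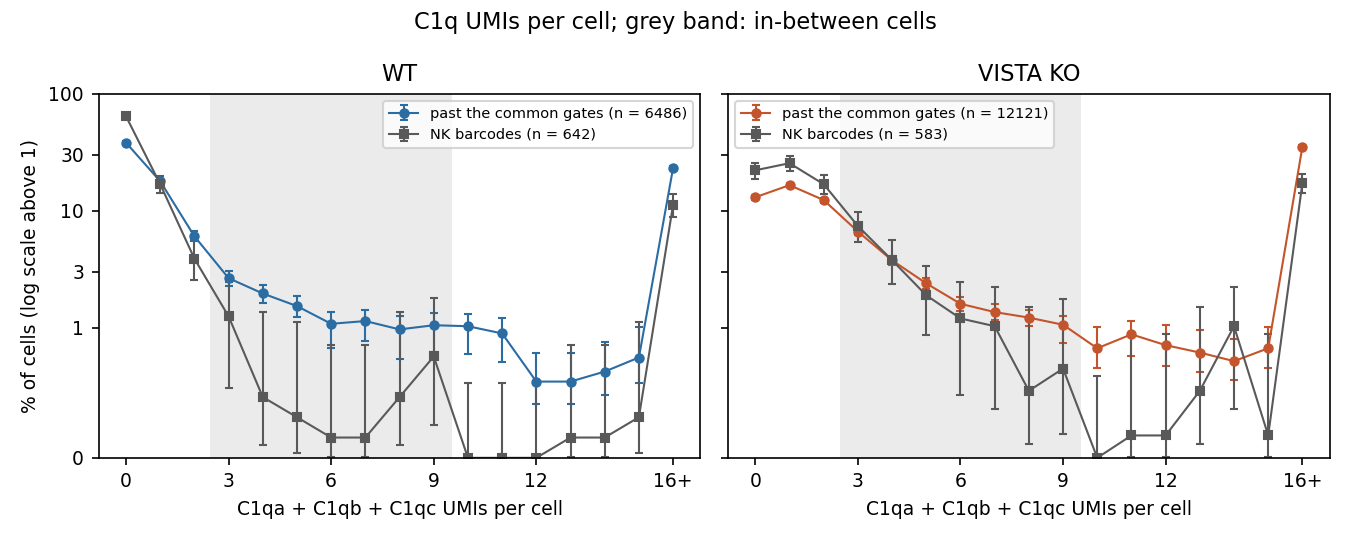
Percent of cells (vertical axis, log scale above 1) by the number of C1qa, C1qb and C1qc UMIs per cell (horizontal axis, 16 and more pooled), for cells past the common gates and for NK barcodes, with exact binomial intervals. The gated WT cells lie above the NK barcodes over most of the grey in-between range, and in VISTA KO the gated cells lie within the NK intervals at each number from 3 to 9, with 6.63% of gated cells and 7.38% of NK barcodes at 3.

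The range was filled mostly at its lower end. Cells with 3 to 5 C1q UMIs were 59.1% of WT and 70.9% of VISTA KO in-between cells, and those with exactly 3 were 25.5% and 36.8%. Just outside the lower limit, cells with 2 C1q UMIs held 867 CPM of Ccr2, the chemokine receptor of classical monocytes, in WT and 939 in VISTA KO. Just inside it, cells with 3 C1q UMIs held 945 and 965. At the upper limit, the values were 932 and 933 with 9 C1q UMIs and 882 and 1066 with 10. No step in Ccr2 thus marked either limit, which describes the rule and tests nothing.

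The summed macrophage maturation genes were higher toward the upper end of the range, from 8835 CPM at 3 C1q UMIs to 11132 at 9 in WT and from 11654 to 14127 in VISTA KO. Cells just past the upper limit, with 10 C1q UMIs, stood at 9947 in WT and 15129 in VISTA KO. With 11 to 15 C1q UMIs the sums were 9734 and 13880, and with 16 or more they were 16878 and 17990. Cells with 11 to 15 were thus closer to in-between cells than to the main C1q-high body in both libraries. The classical monocyte genes went the other way, from 39000 CPM at 3 C1q UMIs to 35749 at 9 in WT and from 35343 to 30868 in VISTA KO. At 16 or more they stood at 31073 and 27179. The WT sums did not change steadily between these points. In WT the monocyte genes stood at 40039 CPM at 7 C1q UMIs and 40064 at 15. The macrophage maturation genes stood at 9537 at 8 and 8802 at 15.

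**Figure D2:**
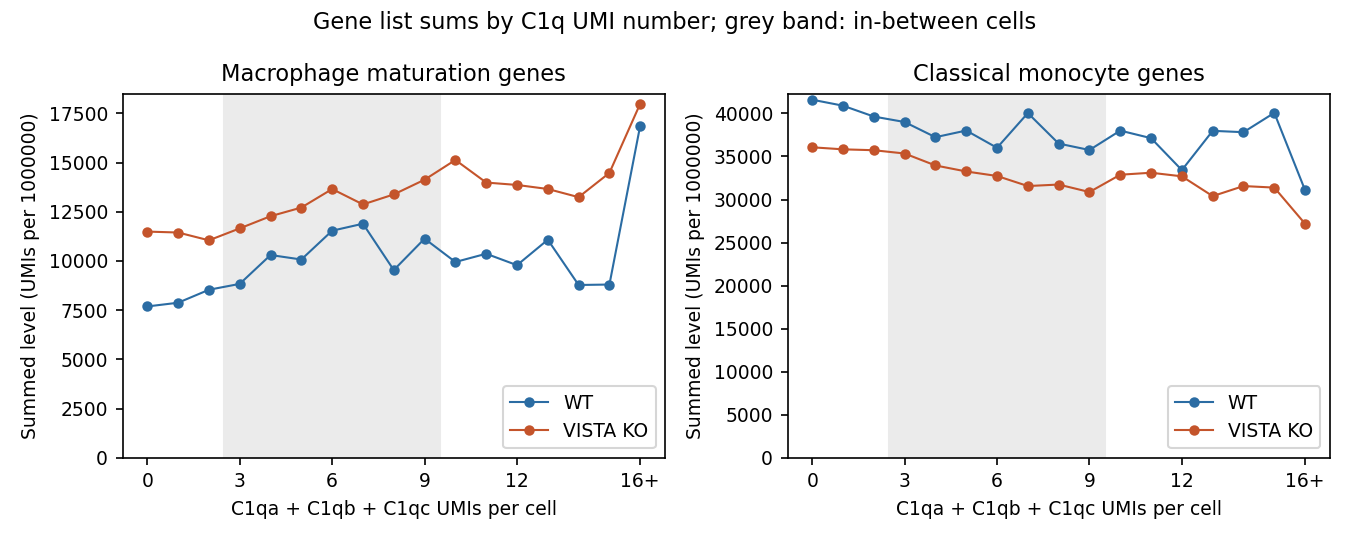
Summed level of 2 gene lists without the gate genes (vertical axes, UMIs per 1000000) by the number of C1q UMIs per cell (horizontal axes, 16 and more pooled), 1 line per library. Macrophage maturation genes are higher and classical monocyte genes lower at the right of the grey in-between range than at its left, and WT and VISTA KO lie on different levels throughout.

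The label was checked against its markers. The gate genes (Ly6c2 and the C1q chains) were left out of the sums, since the rule sets their order. The other 11 monocyte markers summed to 13092 CPM in C1q-low, 11653 in in-between and 8436 in C1q-high cells of WT, and to 11302, 10350 and 7066 in VISTA KO. The other 11 macrophage markers summed to 3427, 4834 and 8896 in WT and to 6315, 7091 and 11049 in VISTA KO. In both libraries the in-between cells lay between the outer classes and nearer to C1q-low cells in both sums. Ccr2 stood at 816, 860 and 687 CPM in WT and at 988, 978 and 769 in VISTA KO, which makes its in-between level that of C1q-low cells. Ly6c2, a gate gene, stood at 3987, 3847 and 2911 CPM in WT and at 3939, 3760 and 2452 in VISTA KO. The name therefore describes a low C1q count on cells that otherwise carried much of a monocyte profile.

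The C1q chains themselves did not keep the same proportions across the classes. C1qa made up 25.1% (23.7 to 26.5) of the C1q UMIs of WT in-between cells, against 33.8% in C1q-low and 35.9% in C1q-high cells. C1qb made up 55.9% (54.3 to 57.6) there, against 47.5% and 44.0%. In VISTA KO, C1qa made up 34.3% in C1q-low, 31.1% (30.3 to 32.1) in in-between and 37.3% in C1q-high cells, and C1qb 48.4%, 51.1% (50.2 to 52.1) and 43.0%. The in-between cells of both libraries thus had the lowest C1qa and the highest C1qb share of the 3 classes. The C1q UMIs of NK barcodes with fewer than 10 of them were 31.5% C1qa (26.1 to 37.2) and 47.2% C1qb in WT and 33.3% (29.9 to 36.8) and 50.3% in VISTA KO.

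The imbalance depended on the depth of the cell, and depth ranges were set after these values had been seen. In WT in-between cells with fewer than 2000 gene UMIs (181 cells) C1qa was 48.4% and C1qb 33.3% of C1q UMIs. In those with 3000 to 6000 gene UMIs (263 cells) the shares were 15.2% (13.4 to 17.2) and 66.2% (63.6 to 68.6). C1q-high WT cells of the same depth had 33.8% and 46.6%, and C1q-low ones had 33.3% and 50%. The pooled WT share is thus a mix of shallow cells rich in C1qa and deeper cells rich in C1qb. In VISTA KO in-between cells the shares were 37.2% and 45.4% in 710 cells under 2000 UMIs and 28.2% (26.7 to 29.6) and 54.0% (52.4 to 55.6) in 857 cells with 3000 to 6000. The direction was the same in VISTA KO and the distance smaller.

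**Figure D3:**
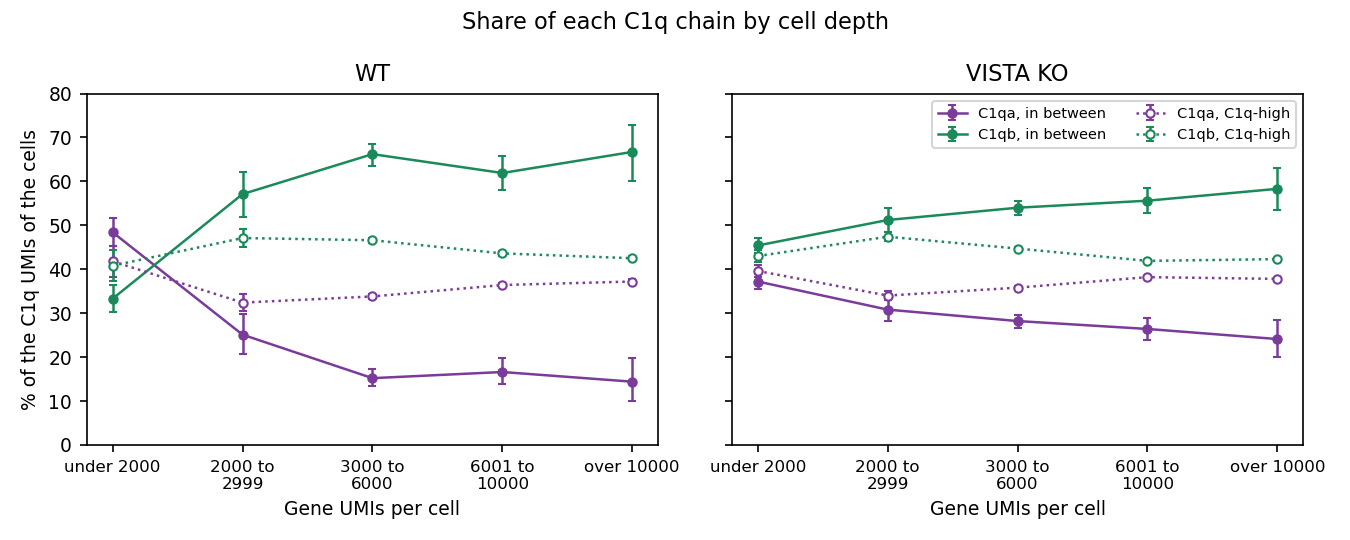
Percent of C1q UMIs that came from C1qa and from C1qb (vertical axis) by gene UMIs per cell (horizontal axis), in in-between cells (filled, solid) and C1q-high cells (open, dotted), with exact binomial intervals that cover counting error only. From 2000 gene UMIs up, C1qb lies higher and C1qa lower in in-between cells than in C1q-high cells of both libraries.

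The same imbalance was counted cell by cell. Of the WT in-between cells with 3000 to 6000 UMIs, 110 of 263 (41.8%, 35.8 to 48.0) had at least 3 C1qb UMIs and no C1qa UMI, and 4 (1.52%) had at least 3 C1qa and no C1qb. In VISTA KO the numbers were 170 of 857 (19.8%, 17.2 to 22.7) and 29 (3.38%). At least 6 C1qb UMIs with no C1qa UMI were found in 35 and 23 of these cells. Among NK barcodes with 3 to 9 C1q UMIs, at least 3 C1qb and no C1qa were found in 4 of 23 in WT (17.4%, 4.95 to 38.8) and 14 of 96 in VISTA KO (14.6%, 8.21 to 23.3). Over all depths, 211 of 674 WT in-between cells (31.3%, 27.8 to 35.0) and 369 of 2185 VISTA KO ones (16.9%, 15.3 to 18.5) were of this kind. The intervals of in-between cells and NK barcodes overlapped in both libraries. Overlap alone does not decide whether the shares differ, the NK barcodes were few, and the difference was not tested. The low C1qa share went on just past the upper limit: with 11 to 15 C1q UMIs, C1qa was 21.7% in WT and 29.7% in VISTA KO, and with 16 or more it was 36.4% and 37.5%.

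In-between cells were set against C1q-low cells to see which genes came with a few C1q UMIs. A gene was called higher or lower at 1.5-fold or more with an interval that left out 1, among genes with at least 100 UMIs; this sorts genes by size, with no test behind it. In WT 271 of 8107 genes (3.34%) were higher and 125 (1.54%) lower. In VISTA KO 78 of 8766 (0.890%) were higher and 27 (0.308%) lower. Only 25 of 8051 genes (0.311%) were higher and 3 (0.0373%) lower in both libraries. The VISTA KO in-between cells were thus close to their C1q-low neighbors in this count.

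Macrophage genes led the 25. Mmp12, macrophage elastase, stood at 15.5 CPM in C1q-low and 85.0 in in-between cells of WT and at 31.8 and 82.2 in VISTA KO (log2 ratios 2.46, 2.20 to 2.71, and 1.37, 1.21 to 1.53). Pf4, a chemokine of platelets and macrophages, stood at 110 and 361 CPM in WT and 97.0 and 193 in VISTA KO (1.72 and 0.99). Mrc1, the mannose receptor CD206, stood at 33.1 and 66.4 CPM in WT and 53.6 and 85.9 in VISTA KO (1.01 and 0.68). These 3 genes were also called higher in both libraries when only cells of 3000 to 6000 gene UMIs were used, where 8 genes were called, and no other of the 25 was.

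Lpl, lipoprotein lipase, stood at 31.8 and 84.4 CPM in WT and 17.6 and 48.9 in VISTA KO (log2 ratios 1.41 and 1.48). Cd36, a fatty acid and lipoprotein scavenger receptor, stood at 15.2 and 42.2 CPM in WT and 16.2 and 25.6 in VISTA KO (1.48 and 0.66). Ccl8, a monocyte chemoattractant, stood at 7.61 and 30.2 CPM in WT and 39.0 and 63.7 in VISTA KO (2.0 and 0.71). Few cells carried most of these UMIs: the 10 richest in-between cells held 76.4% of the Lpl UMIs in WT against 69.1% in VISTA KO, and 71.9% and 52.5% of the Mmp12 UMIs. The corresponding shares were 30.5% and 13.2% for Mrc1. At 3000 to 6000 gene UMIs the ratios of Lpl were 0.75 in WT and 0.42 in VISTA KO.

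The 3 genes that were lower in both libraries were named after their values were seen. Ace, angiotensin-converting enzyme and a marker of nonclassical monocytes, stood at 12.2 CPM in C1q-low and 4.98 in in-between cells of WT and at 11.7 and 7.25 in VISTA KO (log2 ratios -1.21 and -0.67). Klrd1, the NK receptor CD94, stood at 46.8 and 12.3 CPM in WT and 29.0 and 12.9 in VISTA KO (-1.89 and -1.16). Nkg7, a protein of cytotoxic granules, stood at 11.6 and 7.31 CPM in WT and 4.95 and 2.90 in VISTA KO (-0.61 and -0.73). These are genes of nonclassical monocytes and of NK cells, not of classical monocytes, and the 10 NK markers as a whole (4 of them gate genes) summed to 57.8 CPM in C1q-low and 43.5 in in-between cells of WT and to 30.1 and 19.1 in VISTA KO. Their part in the difference was not tested.

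Gene lists gave the same order. Of 31 measured macrophage maturation genes, 14 were higher than in C1q-low cells in WT (median log2 ratio 0.56 against 0.05 over all genes) and 5 in VISTA KO (0.20 against 0.03). None was lower, and 4 were higher in both. Of all genes, 3.34% were higher in WT, 0.890% in VISTA KO and 0.311% in both. Apoe, a lipid carrier of macrophages, stood at 1383, 2130 and 5064 CPM in C1q-low, in-between and C1q-high cells of WT and at 3561, 4031 and 6921 in VISTA KO. Adgre1, the macrophage antigen F4/80, stood at 59.0, 80.7 and 129 CPM in WT and 86.7, 100 and 148 in VISTA KO. Both followed the order of the classes in both libraries over all depths. At 3000 to 6000 gene UMIs the Apoe log2 ratio over C1q-low cells was 0.41 in WT and 0.16 in VISTA KO. The Adgre1 ratio was -0.05 (-0.48 to 0.30) in WT and 0.18 (-0.01 to 0.36) in VISTA KO. A step up of Adgre1 from C1q-low to in-between cells was thus not detectable at that depth.

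Lists of macrophage function were read against the share of all genes called higher, 3.34% in WT and 0.890% in VISTA KO, so that more calls in WT than in VISTA KO are what all genes show. Of 22 lipid handling genes, 8 were higher than in C1q-low cells in WT and 3 in VISTA KO, with medians of 0.38 and 0.12. Of 29 lysosomal genes, 5 were higher in WT and 0 in VISTA KO (0.22 and 0.08). Of 16 genes of alternative activation and scavenging, 7 were higher in WT and 4 in VISTA KO (0.37 and 0.17). Arg1, the arginase of suppressive myeloid cells, stood at 1023, 1685 and 2251 CPM in WT and at 1264, 1470 and 2297 in VISTA KO. None of these members was lower in either library, and the difference between the libraries was not tested.

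Of 25 classical monocyte genes in WT, 3 were lower than in C1q-low cells and 0 higher (median -0.12), where 1.54% of all genes were lower. Of 26 in VISTA KO none was called (-0.09), where 0.308% of all genes were lower. Ifitm6, an interferon-induced membrane protein of monocytes, stood at 379, 248 and 145 CPM from C1q-low to C1q-high in WT and at 283, 227 and 106 in VISTA KO. Hp, haptoglobin, stood at 480, 316 and 189 CPM in WT and 320, 274 and 135 in VISTA KO. Vcan, a matrix proteoglycan of monocytes, stood at 244, 241 and 124 CPM in WT and 157, 150 and 72.2 in VISTA KO, so its in-between level was that of C1q-low cells.

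Against C1q-high cells the in-between cells had less of the mature macrophage genes. In WT 142 of 7817 genes (1.82%) were higher and 283 (3.62%) lower in in-between cells. In VISTA KO 274 of 9657 (2.84%) were higher and 352 (3.65%) lower. In both libraries 49 of 7809 genes (0.627%) were higher and 98 (1.25%) lower. Macrophage maturation genes had 0 higher and 12 lower of 31 in both libraries, and classical monocyte genes had 6 higher and 0 lower of 25. These directions follow the C1q rule itself and are a description.

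Folr2, a folate receptor of tissue macrophages, stood at 14.9 CPM in in-between and 67.5 in C1q-high cells of WT and at 9.18 and 41.7 in VISTA KO (log2 ratios -2.15 and -2.17). Cd72, a lectin-like receptor of B cells and macrophages, stood at 82.0 and 281 CPM in WT and at 105 and 277 in VISTA KO (-1.77 and -1.40). Ms4a7, a membrane protein of macrophages, stood at 201 and 633 CPM in WT and at 276 and 646 in VISTA KO (-1.65 and -1.23). In C1q-low cells these 3 genes stood at 5.59, 54.9 and 109 CPM in WT and at 6.21, 95.6 and 235 in VISTA KO, so the in-between level lay nearer to the low end for each. Dmkn, dermokine, had a ratio in the other direction, at 95.3 and 38.1 CPM in WT and 62.6 and 25.7 in VISTA KO (1.32 and 1.28). At 3000 to 6000 gene UMIs the distances were larger, at -3.63 and -2.91 for Folr2, -2.64 in WT for Ms4a7, -2.92 in WT for Cd72 and 2.15 and 2.01 for Dmkn.

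The place of the in-between cells was measured over genes that separated the outer classes. Genes at least 2-fold apart in the same direction in both libraries numbered 92 that were higher in C1q-high cells (1.02% of 9025) and 41 that were lower (0.454%). On a scale where 0 is the C1q-low and 1 the C1q-high log2 level, the median gene stood at 0.52 in WT (quartiles 0.35 to 0.63) and at 0.25 in VISTA KO (0.15 to 0.39). On the linear CPM scale the medians were 0.40 and 0.22. Most genes lay inside the scale: 4 WT and 9 VISTA KO genes of 133 were below 0, and 7 and 3 were above 1. With cells of 3000 to 6000 gene UMIs only, the WT median was 0.28, over genes chosen anew at that depth and not the same 133. The midway place in WT was thus not seen at that depth. The VISTA KO median at that depth is not given here.

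**Figure D4:**
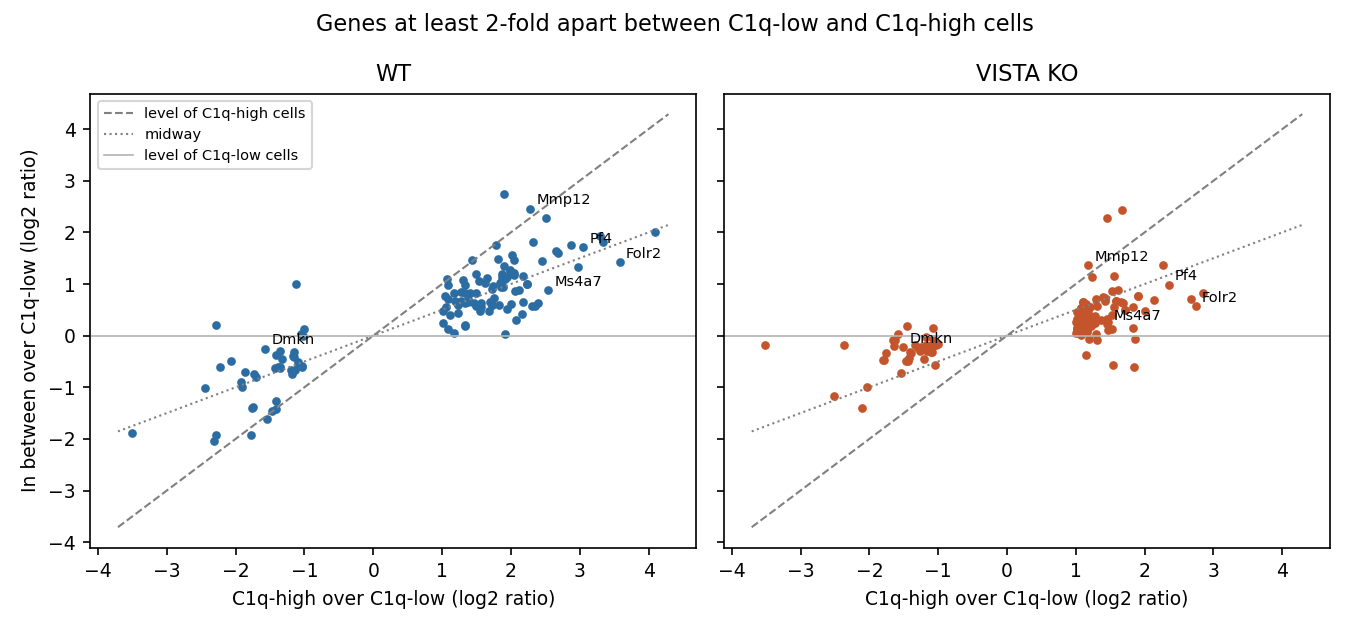
Log2 ratio of in-between over C1q-low cells (vertical axis) against that of C1q-high over C1q-low cells (horizontal axis) for the 133 genes at least 2-fold apart between the outer classes, 1 point per gene and 1 panel per library. The points of WT scatter around the midway line, with a median position of 0.52, and those of VISTA KO lie nearer to the level of C1q-low cells, at 0.25.

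Hardly any gene peaked in the in-between cells. Cnst, consortin, and Egr3, an immediate early transcription factor, were 2 of 9025 genes (0.0222%) at least 1.5-fold above both neighbors in both libraries, counted on the ratios alone. Cnst stood at 3.47, 5.31 and 3.03 CPM in WT and 3.63, 5.68 and 3.70 in VISTA KO, but rested on 16 WT in-between UMIs, and its WT ratio over C1q-low cells had an interval of -0.28 to 1.43. Egr3 (20 WT in-between UMIs) stood at 3.30, 6.64 and 2.81 CPM in WT and 2.31, 4.11 and 1.89 in VISTA KO, and the 10 richest cells held 80% and 61.8% of its in-between UMIs. Klhl7, a ubiquitin ligase adaptor, was the 1 gene (0.0111%) below both neighbors, at 3.92, 1.33 and 3.11 CPM in WT and 4.01, 2.18 and 3.62 in VISTA KO, but rested on 4 WT in-between UMIs, and its WT ratio over C1q-high cells had an interval of -3.17 to 0.24. No difference was thus detectable for Cnst or Klhl7 in WT on those sides at this depth.

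The surface tags, which the rule did not use, were read next. The median CD11c tag, an integrin of macrophages and dendritic cells, was 7, 15 and 20 UMIs per cell in C1q-low, in-between and C1q-high cells of WT and 8, 13 and 23 in VISTA KO. The quartiles of in-between cells were 5 to 42.75 and 6 to 29. The Ly6C tag, which marks inflammatory monocytes, had median values of 1015, 1537.5 and 1660 in WT and 975, 1189 and 1280 in VISTA KO. Ly6G, the neutrophil antigen, had 4, 7 and 9 in WT and 4, 5 and 7 in VISTA KO. All 3 raw tag medians were thus higher in in-between than in C1q-low cells, the neutrophil tag included. The Ly6C median did not go down where Ly6c2 RNA did. Per summed Ly6G tag UMI, however, summed Ly6C was 119, 72.6 and 93.9 from C1q-low to C1q-high in WT and 226, 188 and 158 in VISTA KO. Taken that way, Ly6C was lower in in-between than in C1q-low cells in both libraries. Summed CD11c per Ly6G was 1.38, 1.16 and 1.65 in WT and 2.90, 3.41 and 3.93 in VISTA KO. At 3000 to 6000 gene UMIs Ly6c2 RNA stood at 4263, 4420 and 4044 CPM in WT and at 4036, 4297 and 3160 in VISTA KO. At that depth the RNA was thus lower only in C1q-high cells.

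Depth moved with these tags. In WT in-between cells under 2000 gene UMIs the medians were 45 for CD11c, 23 for Ly6G and 2780 for Ly6C. In those with 3000 to 6000 they were 6, 4 and 1120, against 5, 3 and 909.5 in C1q-low and 13, 7 and 1395 in C1q-high cells of that depth. In VISTA KO cells of 3000 to 6000 gene UMIs, CD11c was 6, 9 and 16 and Ly6C 842, 1028 and 1091 from C1q-low to C1q-high. At matched depth the order of the classes was kept in both libraries, with in-between CD11c nearer to C1q-low. Cells under 2000 gene UMIs were 26.9% of in-between, 12.3% of C1q-low and 2.72% of C1q-high cells in WT, and 32.5%, 26.4% and 6.18% in VISTA KO. The part of these shallow cells in the gene differences was not tested beyond the values given for 3000 to 6000 UMIs.

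Markers of other cells were counted in the in-between cells. The 12 neutrophil markers (2 of them gate genes) summed to 323, 495 and 418 CPM from C1q-low to C1q-high in WT and to 201, 214 and 170 in VISTA KO, with Camp and Ngp at 0 in the in-between cells of both libraries. Retnlg, a neutrophil gene, stood at 267 CPM (54 UMIs) in WT in-between cells under 2000 gene UMIs and at 11.2 CPM (13 UMIs) in those with 3000 to 6000. T cell markers summed to 84.8, 42.8 and 20.6 CPM in WT and 16.3, 10.6 and 5.14 in VISTA KO. Erythroid markers summed to 1.66 CPM in WT and 235 in VISTA KO in-between cells, where at most 10 cells held all UMIs of Hbb-bs, a beta globin. Their part in the differences was not tested.

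VISTA KO was then set against WT within the in-between cells, and the targeted gene was read first. Vsir stood at 138 CPM in WT (a UMI in 38.3% of cells) and 38.7 in VISTA KO (11.9%), a log2 ratio of -1.83 (-2.05 to -1.62). It was not at 0, and reads of the 3 prime end say nothing of the genotype where that end was not deleted. Of 7085 genes with at least 100 UMIs, 366 (5.17%) were higher and 123 (1.74%) lower in VISTA KO, with a median log2 ratio of 0.04. Of the 366, 168 were also called higher in C1q-low and 129 in C1q-high cells, and of the 123, 53 and 66 were called lower there. Over all genes, 626 of 9160 were higher and 171 lower in VISTA KO C1q-low cells. In C1q-high cells 432 of 9793 were higher and 186 lower.

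Of the 20 most distant genes, 10 in each direction, 9 lay on chromosome 1, which holds 6.05% of the 5979 genes that could be ranked and have a chromosome in RefSeq. Vsir itself lies on chromosome 10. The CD45 allele went with the genotype, so differences that came with that allele and the loss of Vsir cannot be told apart here. Ifi202b, an interferon-induced DNA-binding protein, stood at 6.64 CPM in WT against 612 in VISTA KO (6.46, 5.90 to 7.24). Ppfia4, a liprin of the cell cortex, had 0 UMIs in WT against 280 in VISTA KO, at least 34.0-fold higher when set against a floor of 3 UMIs. Chil1, a chitinase-like protein, had 442 UMIs in WT against 3 in VISTA KO (log2 ratio -8.25 with 1 UMI added to both, -10.94 to -7.10). Ifi213, an interferon-induced relative of Ifi202b, stood at 256 and 5.32 CPM (-5.56), Ctse, cathepsin E, at 44.2 and 2.18 (-4.28), and G0s2, an inhibitor of the lipase ATGL, at 169 and 26.6 (-2.67). At 3000 to 6000 gene UMIs the ratios were 7.95 for Ifi202b and -4.38 for G0s2. The Ifi200 family as a whole had 1 of 11 members higher and 5 lower, against 5.17% and 1.74% of all genes.

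Some antigen presentation genes were higher in VISTA KO in-between cells. Of 12 MHC class II genes, 6 were higher and 0 lower (median log2 ratio 0.57), against 5.17% and 1.74% of all genes. H2-Aa, the alpha chain of I-A, stood at 983 CPM in WT against 2694 in VISTA KO (1.45, 1.40 to 1.51), and H2-Eb1, the beta chain of I-E, at 850 and 2455 (1.53, 1.47 to 1.59). Of 18 MHC class I genes, 4 were higher and 0 lower (0.30), with H2-Q7 at 117 and 379 CPM (1.69, 1.54 to 1.86), which shares reads with H2-Q6. Psmb8 and Psmb10, subunits of the immunoproteasome on that list, had ratios of -0.21 (-0.26 to -0.16) and -0.18 (-0.27 to -0.09), under the size rule. H2-Aa was also higher in VISTA KO in C1q-low and in C1q-high cells, by log2 ratios of 1.43 and 1.44. The difference was thus of like size in all 3 classes.

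Chemokines differed in both directions. Among 27 members of the cytokine and chemokine list, 8 were called higher and 4 lower (median -0.03), against 5.17% and 1.74% of all genes. Ccl5, which attracts T cells, stood at 548 and 1725 CPM (1.65, 1.58 to 1.73), with the 10 richest cells holding 46.8% of its WT UMIs, and its ratio was 2.33 at 3000 to 6000 gene UMIs. Cxcl9, an attractant of activated T cells, stood at 332 and 758 (1.19, 1.10 to 1.29). Cxcl2, which draws neutrophils, stood at 601 and 287 (-1.07, -1.15 to -0.98), and Pf4 at 361 and 193 (-0.91, -1.02 to -0.79). NF-kappaB feedback genes and targets had 4 of 22 members higher and 0 lower (0.38), with Bcl2a1d, a survival gene with near-identical copies that can share its reads, at 20.9 and 62.8 CPM (1.57) and Cd83, a marker of activation, at 33.2 and 75.2 (1.17).

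Macrophage genes differed in both directions between the libraries. Of 31 macrophage maturation genes, 4 were higher and 4 lower (median 0.16), against 5.17% and 1.74% of all genes. Apoe stood at 2130 and 4031 CPM (0.92, 0.88 to 0.96). Its ratio was 1.36 in C1q-low and 0.45 in C1q-high cells, and the step between classes was not tested. A UMI of Apoe was found in 61.0% of WT and 90.2% of VISTA KO C1q-low cells. NK barcodes had any C1q UMI in 36.1% of WT and 77.9% of VISTA KO. The part of macrophage RNA from other cells in the Apoe ratios was not tested. Itgax, the RNA of CD11c, stood at 15.9 and 32.0 (0.98, 0.56 to 1.48). Fcrls, an Fc receptor-like gene of tissue macrophages, stood at 19.6 and 5.80 (-1.75, -2.34 to -1.18), with 62.7% of its WT UMIs in the 10 richest cells. At 3000 to 6000 gene UMIs Fcrls no longer passed the size rule (-0.55, -1.90 to 1.24), and Itgax did not pass it with C1q counted per 10000 UMIs (0.43). Ccr2 and Arg1 were under the size rule, at 0.18 and -0.20, and Fcgr2b, the inhibitory Fc receptor, passed it at 328 and 661 CPM (1.01, 0.91 to 1.11).

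The pathways of the series title were read next, against 5.17% of all genes higher and 1.74% lower. Of 21 polyamine and arginine genes, 2 were higher and 0 lower (median 0.09), and the counts of this and the STAT3 list were near those shares and say nothing particular of either list. Slc7a2, an importer of arginine and ornithine, stood at 18.3 and 43.3 CPM (1.22, 0.83 to 1.68), and Arg2, the mitochondrial arginase, at 13.3 and 21.4 (0.66, 0.19 to 1.22). At 3000 to 6000 gene UMIs Arg2 no longer passed the size rule (0.29, -0.43 to 1.21). Odc1, which makes putrescine, stood at 50.8 and 43.1 (-0.24, -0.51 to 0.05). Of 20 STAT3 pathway genes, 1 was higher and 0 lower (0.16): Socs3, the feedback inhibitor, at 183 and 306 CPM (0.74, 0.61 to 0.88). Stat3 itself stood at 139 and 163 (0.22, 0.06 to 0.38) and Nos2, the inducible nitric oxide synthase, at 46.2 and 56.9 (0.29, 0.03 to 0.59), both under the size rule.

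**Figure D5:**
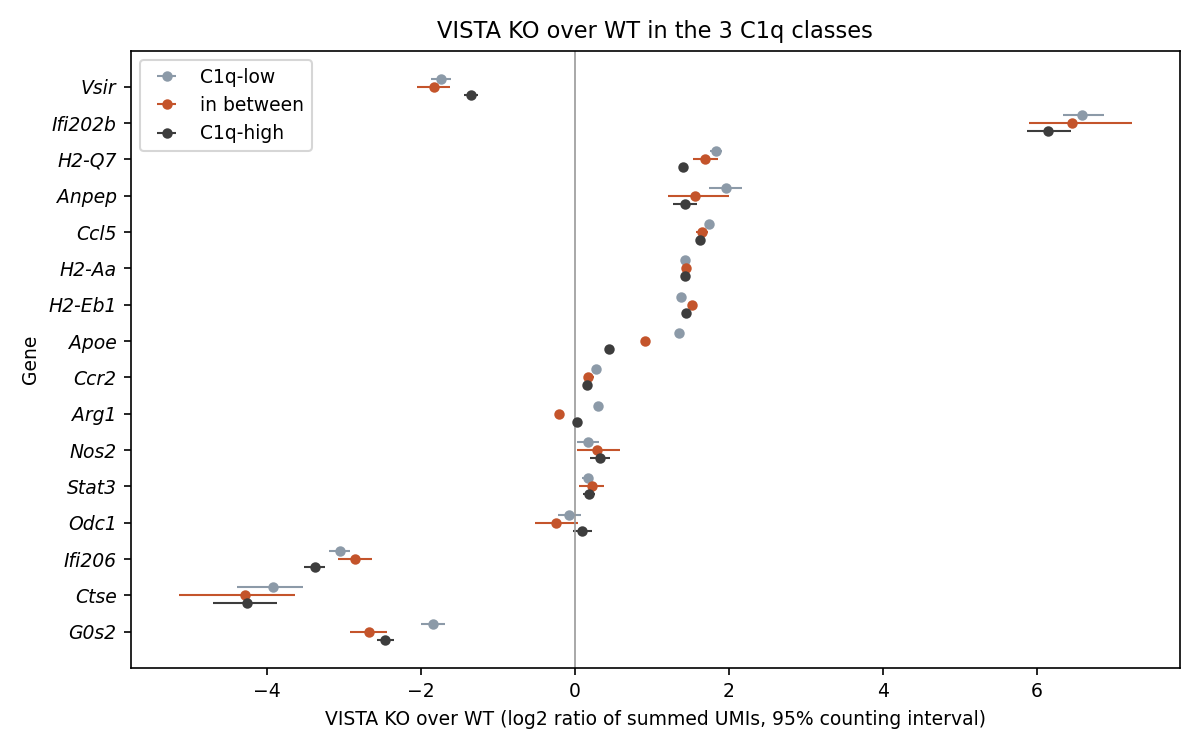
Log2 ratio of VISTA KO over WT (horizontal axis) for named genes (vertical axis) in C1q-low, in-between and C1q-high cells, with 95% intervals that cover counting error only and 1 library per group. For most genes shown the 3 classes lie close together, and Apoe steps from 1.36 over 0.92 to 0.45.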

How the data were processed

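RNA and 3 antibody tags were read in 1 WT and 1 VISTA KO library. The deposited matrices hold raw UMI counts per gene and barcode, made by the authors with Cell Ranger 5.0.0, per the file headers. The build mm10 and Seurat 4.0 are named in the submitters' processing notes, which do not say what Seurat was used for. Barcodes with at least 200 genes, 500 gene UMIs and at most 10% mitochondrial UMIs were kept. Symbols that occur more than once (40) were read from their first entry.

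For each class and library the UMIs of all its cells were added and given per 1000000 (CPM). Log2 ratios were taken after 1 UMI was added to both sums, which pulls ratios of low genes toward 0, while their intervals were computed without it. Ratios carry 95% conditional binomial intervals, and shares and chain percentages exact Clopper-Pearson intervals; both cover counting error only. A gene was called at 1.5-fold with an interval that left out 1, among genes with at least 100 UMIs. With 1 library per group no p-value was computed. Shares were also computed after each cell was thinned at random to 2000 UMIs. No doublet caller was run. Python 3.11.15, numpy 2.4.6 and scipy 1.17.1 were used, and the scripts were tested on simulated data.

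Members and gene lists were chosen with earlier results of these data known. Named were the 10 highest and 10 lowest ratios of each comparison (a UMI in 5% of cells on either side), up to 4 members per list, genes outside both neighbors and 14 set genes. Ace, Klrd1, Nkg7, Retnlg, Hbb-bs and Malat1 were chosen after their values were seen. Some genes that the rule names are not reported here. Alternatives changed the depth range, cell filter, gates, count minimum, scaling and cell weight.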

Additional observations from a re-analysis of the deposited data

Results flagged for a closer look

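A few ratios had opposite directions in the 2 libraries or classes, and none of these differences was tested. Areg, an epidermal growth factor receptor ligand, had a log2 ratio of in-between over C1q-low cells of 1.0 in WT and -1.0 in VISTA KO. Its in-between UMIs numbered 31 and 19, and at most 10 cells held all of them in each library. Retnla, a secreted protein of alternatively activated macrophages, had a ratio of in-between over C1q-high cells of -1.01 in WT and 0.83 in VISTA KO, and the 10 richest in-between cells held 95.9% and 91.2% of its UMIs. Mt2, a metallothionein, had a ratio of VISTA KO over WT of -0.96 in in-between cells and 0.63 in C1q-low cells. It stood at 9.85, 38.9 and 26.6 CPM from C1q-low to C1q-high in WT and at 15.2, 20.1 and 26.6 in VISTA KO, and the 10 richest in-between cells held 73.5% and 39.8% of its UMIs.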

How the results depend on the processing

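No paired analysis was possible because WT and VISTA KO had 1 library each. The share of in-between cells was 10.4% in WT and 18.0% in VISTA KO; it was 7.67% and 16.9% with 3000 to 6000 gene UMIs, 9.53% and 16.6% with the stricter cell filter, 5.70% and 9.12% with 4 to 7 C1q UMIs, and 12.1% and 21.1% with C1q per 10000 UMIs. The WT share was 13.9% when thinned, and the VISTA KO share was 19.2% without barcodes over 10000 UMIs and 17.3% with at least 3 Ly6c2 UMIs. C1qa made up 15.2% of C1q UMIs in WT and 28.2% in VISTA KO at 3000 to 6000 gene UMIs, 22.1% and 29.7% with the stricter filter, 18.3% and 27.8% with C1q per 10000 UMIs, 21.8% and 29.5% with at least 3 Ly6c2 UMIs, and 16.9% and 28.1% with at least 2000 gene UMIs. The WT position was 0.28 at 3000 to 6000 UMIs, over genes chosen anew at that depth. Thinning and the minimum of 2000 UMIs were chosen after seeing the data.

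Genes higher and lower in VISTA KO numbered 366 and 123. They were 579 and 224 at a minimum of 20 UMIs, 606 and 308 at 1 UMI, and 669 and 331 with equal weight per cell. At 3000 to 6000 UMIs they numbered 319 and 128, but only 117 of the 366 and 59 of the 123 were among them. Genes higher than in C1q-low cells in both libraries numbered 25, and 38 at 1 UMI, 73 with equal cells, 8 at 3000 to 6000 UMIs, 16 with at least 3 Ly6c2 UMIs and 48 with equal weight per C1q number. Lower genes numbered 3, and 9 at 20 and 9 at 1 UMI, 8 with equal cells, 5 with 4 to 7 C1q UMIs, 8 with C1q per 10000 UMIs and 7 with equal C1q numbers. Against C1q-high cells, 49 higher genes became 77 at 20 UMIs, 90 at 1 UMI, 194 with equal cells, 77 at 3000 to 6000 UMIs and 75 without barcodes over 10000 UMIs, and 98 lower genes became 65 with 4 to 7 C1q UMIs and 159 with C1q per 10000 UMIs. Of the 49 and 98 genes, 18 and 34 were called again at 3000 to 6000 UMIs. A lower minimum counts more genes by its construction, and for the other alternatives the cause was not tested.

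Of the values of named genes under all alternatives, 10511 stayed on their side of the size rule. Another 249 came to pass it, 250 no longer passed it and 8 that had passed it were reversed. Alternatives that changed only the count minimum left each ratio and interval as it was. Their values were counted as staying by construction and say nothing of stability. Values under the rule in both settings were also counted as staying, even where their direction changed. Arg1 in VISTA KO over WT, for example, went from -0.20 to 0.13 at 3000 to 6000 UMIs. At 3000 to 6000 UMIs the reversed log2 ratios were -0.01 for Lpl and -0.004 for Retnla over C1q-high cells in VISTA KO, -1.54 for Retnla over C1q-low cells in WT, and 0.22 for Folr2 and 0.99 for Retnla in VISTA KO over WT. With equal cells they were 0.13 for Ch25h over C1q-high cells in WT and -0.31 for Mcm3 in VISTA KO over WT. With C1q per 10000 UMIs, Cd81 over C1q-low cells in VISTA KO was -0.05. Genes under 100 UMIs could not be called in the main comparisons, and 1 library per group leaves the spread between animals unknown.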

Other observations

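Genes of energy metabolism were mostly near 0 between the libraries. The lists were read against 5.17% of all genes higher and 1.74% lower in VISTA KO over WT in-between cells. In VISTA KO over WT in-between cells, 0 of 19 glycolysis genes were higher or lower (median log2 ratio -0.17), and 0 of 83 nuclear oxidative phosphorylation genes were higher and 2 lower (-0.17). The 2 lower oxidative phosphorylation genes were near the share of all genes and say nothing particular of that list. Of 17 hypoxia genes, 1 was higher and 3 lower (-0.30). The 13 mitochondrially encoded genes had 2 higher and 0 lower (0.28), and of 4 RNA quality genes 2 were higher (0.52). Of 35 type I interferon-stimulated genes, 1 was higher and 2 lower (0.05), with Isg15, a ubiquitin-like modifier, at 2164 and 1110 CPM.

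Some cell cycle genes were lower in in-between than in C1q-high cells, where 3.62% of all genes were lower in WT and 3.65% in VISTA KO. Of 18 S phase genes counted in VISTA KO, 6 were lower (median -0.45), and of 11 in WT, 3 were lower (-0.30). Of G2 and M phase genes, 6 of 16 were lower in VISTA KO and 1 of 9 in WT, and none was higher.

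Other marker sums in in-between cells of WT and VISTA KO, in that order, were 320 and 419 CPM for nonclassical monocytes, 117 and 146 for cDC2, 711 and 509 for cDC1, 106 and 121 for mature dendritic cells, and 1640 and 1347 for plasmacytoid dendritic cells, with Siglech and Klk1 at 0. B cell markers summed to 32.9 and 54.5 CPM, basophil and mast cell markers to 11.6 and 38.7, fibroblast markers to 15.3 and 13.2, tumor epithelium markers to 8.63 and 6.04, and endothelial markers to 109 and 153.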
